A study of Mus musculus with 8 samples.

Results

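The RNA of formative mouse embryonic stem cells with catalytically dead MLL3 and MLL4 (dCD) was set against that of wild-type (WT) cells, gene by gene. It was also set beside that of cells lacking both proteins (DKO). The genes were those named as nearest to a region in the authors' deposited H3K27ac table with values in its RNA level columns, 9781 of 19135 gene names. Their regions made up 54067 of the table's 112137. H3K27ac, the acetylation of histone H3 at lysine 27 found at active promoters and enhancers, was measured by CUT&Tag in 2 libraries for each of 4 groups, formative and naive DKO and formative and naive WT, and not in dCD cells. Per the labels, WT cells were the R1 line, DKO cells carried knockouts of MLL3 and of MLL4, with no line named, and formative cells were taken 63 hours after LIF2i was withdrawn. The RNA columns came from libraries outside the 8 of this series. They hold 1 log-scale level per genotype and state, with no SD or n. The sources used here do not give the line behind the dCD columns, its clones or the number of libraries. No difference below therefore has a replicate check, and none was tested. The threshold for calling a gene was a log2 difference of 1 or more in either direction, which is 2-fold.

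MLL3 (the product of Kmt2c) and MLL4 (that of Kmt2d) are large histone methyltransferases that place monomethylation on lysine 4 of histone H3 (H3K4me1) at enhancers and that also carry other enzymes and coactivators to chromatin. A catalytically dead protein can keep the second role without the first, which is why dCD and DKO cells are compared. The amount of either protein in dCD cells was not measured here. A difference between dCD and DKO cells is therefore not shown to separate the activity of the enzymes from their presence. Formative cells are an intermediate that mouse embryonic stem cells pass through on leaving the naive state. In the formative state they become able to respond to signals for the germ layers and the germline. Naive factors such as Klf2, Esrrb and Nanog are lower in that state, while Fgf5, Otx2, Pou3f1 and the de novo DNA methyltransferases are higher. Wnt, Nodal and FGF are the signals that then pattern the epiblast and the primitive streak.

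In formative cells, RNA of 462 genes (4.72%) was higher in dCD than in WT cells by 2-fold or more, and RNA of 354 (3.62%) was lower by as much. In DKO cells 574 genes (5.87%) were higher and 494 (5.05%) lower than in WT cells. Both comparisons use the same WT column, so their values are given side by side and not as separate evidence. The direct difference of dCD minus DKO does not use it, and there 421 genes (4.3%) were higher and 387 (3.96%) lower in dCD. That balance turned with the setting, to 74 higher and 105 lower among genes above the median level and to 379 and 384 without chromosome 6, and it was 481 and 336 after median centring. The median difference over all genes was 0.01 for dCD against WT, 0.06 for DKO against WT and -0.07 for dCD minus DKO. Most calls were at genes of low RNA level, on a scale that is not stated to be per length. Among genes above the median RNA level in either of the groups compared, 4.03% were past 2-fold in dCD against WT, 5.22% in DKO against WT and 3.5% in dCD minus DKO. Among the other genes these shares were 13.2%, 17.3% and 13.5%. The shares over all genes are the reference for the list counts below.

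The mutated genes were read first. The RNA level of Kmt2c (chromosome 5, 25271795 to 25498855 in GRCm38.p6, the build known as mm10) was 5.15 in dCD, 4.30 in DKO and 5.21 in WT cells. That of Kmt2d (chromosome 15, 98831669 to 98874077) was 4.35 in dCD, 4.31 in DKO and 5.16 in WT cells. Kmt2c RNA in dCD cells thus lay beside WT and above DKO, while Kmt2d RNA in dCD cells lay beside DKO, -0.81 from WT on the log2 scale. None of the 10 measured genes of the MLL3/4 complex and other H3K4 methyltransferases was past 2-fold in dCD or in DKO cells as deposited, and Kmt2c in DKO was at -1.03 after quantile normalization. Which part of each gene was altered is not stated in the labels, and these levels therefore do not check the genotype. The 15 core pluripotency genes, which naive and formative cells share, had no member past 2-fold in either mutant, with medians of 0.04 in dCD and -0.18 in DKO. Some levels are uncertain, since near-identical copies elsewhere in the genome can take reads of a gene. The part of such copies in the levels here was not tested. Gapdh, with many pseudogenes, was listed at 1.87, 1.97 and 1.61 in dCD, DKO and WT cells and Pou5f1 at 3.25, 2.64 and 2.84. In bulk RNA, fewer cells of a type and less RNA per cell cannot be told apart.

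Genes on chromosome 6 stood apart in dCD cells. Over its 504 genes the median of dCD minus WT was 0.49 in formative and 0.58 in naive cells, on the log2 scale. The other autosomes and X lay between -0.16 (chromosome 8) and 0.08 (X) in formative cells. The difference was above 0 in each of 8 bins of 20 Mb along the chromosome, from 0.36 to 0.70 in formative and from 0.49 to 0.97 in naive cells. On chromosome 6, 86 genes (17.1%) were at least 2-fold higher in formative dCD cells, against 376 of 9277 (4.05%) elsewhere. In DKO cells the median of chromosome 6 was 0.18, with 0.18 on chromosome 3 and 0.17 on chromosome 1 as well, and the autosomes and X reached down to -0.17 on chromosome 17. DNA copy number was not measured here, and its part in these values was not tested. Genes on chromosome 6 are marked as such below.

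**Figure D1:**
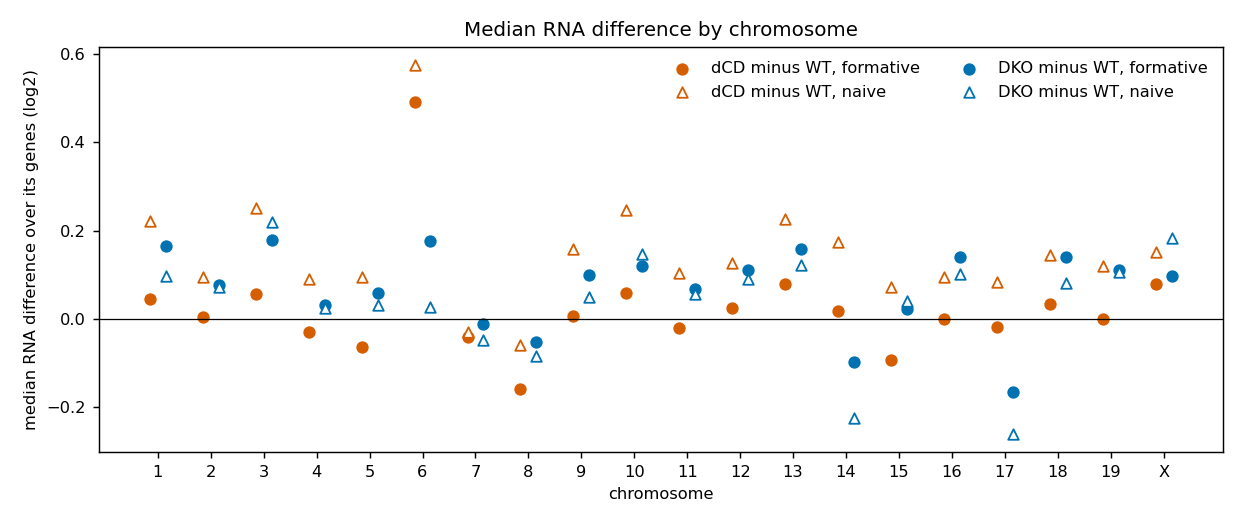
Median RNA difference from WT (log2, vertical axis) over the genes of each chromosome (horizontal axis), for dCD and DKO cells in the formative and the naive state. Chromosome 6 of dCD cells lies at 0.49 in formative and 0.58 in naive cells, above the dCD medians of all other chromosomes drawn, which leave out Y.

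Several ligands and targets of Wnt signalling and genes of the primitive streak were lower in dCD cells and in DKO cells. Of 12 measured genes of the primed and mesendoderm list, 5 were at least 2-fold lower and 1 higher in dCD against WT, and 6 lower and 1 higher in DKO against WT. Over all genes 3.62% were lower and 4.72% higher in dCD, and 5.05% and 5.87% in DKO. The higher ones were Lefty2 in dCD and Hand1 in DKO. The list medians were -0.69 in dCD and -1.10 in DKO, beside 0.01 and 0.06 over all genes. Of 20 genes of the Wnt list, which shares Wnt3, Sp5, T and Cdx1 with the first, 5 were lower and 1 higher in dCD, and 4 lower and 2 higher in DKO. The H3K27ac of their regions in DKO against WT had medians of -1.26 and -0.98, beside -0.41 over all genes with a region within 100 kb. Most calls on both lists were at genes of low RNA level. Among genes above the median level, the primed and mesendoderm list had 1 lower and 1 higher in dCD. In DKO it had 3 lower and 0 higher there. The Wnt list had 1 lower and 0 higher in each mutant there. The primed and mesendoderm list also holds Nodal, Lefty1 and Lefty2, which are counted again with the Nodal pathway below.

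T, or Brachyury, the transcription factor that marks the primitive streak (chromosome 17, 8434423 to 8442496), had RNA levels of 0.31 in dCD, -0.31 in DKO and 2.92 in WT cells. The 250 bases before its RefSeq start (GRCm38.p6, chr17:8434173-8434422, plus strand) and those of Sp5 (chr2:70474673-70474922, plus strand) are shown because both genes are targets of Wnt signalling. Capitals mark CTTTGA or its reverse complement TCAAAG, the core letters of the motif of TCF and LEF factors, through which beta-catenin acts.

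T: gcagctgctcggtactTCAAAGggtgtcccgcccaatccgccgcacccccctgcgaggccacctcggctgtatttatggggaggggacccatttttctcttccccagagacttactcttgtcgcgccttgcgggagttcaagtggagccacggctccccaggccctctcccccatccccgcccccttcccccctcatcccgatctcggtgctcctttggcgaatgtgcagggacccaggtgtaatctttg

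Sp5: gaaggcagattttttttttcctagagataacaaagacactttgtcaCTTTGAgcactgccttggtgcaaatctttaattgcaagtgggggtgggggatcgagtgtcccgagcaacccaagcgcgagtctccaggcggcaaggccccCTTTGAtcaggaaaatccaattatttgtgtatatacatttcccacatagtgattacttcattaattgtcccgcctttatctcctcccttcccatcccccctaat

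The motif was chosen after the values were seen. It was searched on both strands in the RefSeq windows of this length, and 4544 of 32851 (13.8%) held it. Of the 7 genes of the Wnt and mesendoderm lists that were at least 2-fold lower in dCD, 5 had such a window (Axin2, Evx1, Sp5, T and Wnt3), and 2 of these held the motif. A match is a description of the letters and not of a bound site. Around T, the H3K27ac level at chr17:8429344-8430792, placed at -4355 bases from the start in the authors' table, was 6.99 in DKO and 8.07 in WT formative cells, as log2(value + 1). In the authors' deposited table this region was 4.03 higher on the log2 scale in formative than in naive WT cells (DiffBind adjusted p = 0.000456). A region further upstream, chr17:8416189-8416900, was at 5.26 in DKO and 9.51 in WT cells. Another region, chr17:8415438-8416077, was listed at 0 in DKO and at 9.31 in WT cells. Each of these regions was lower in DKO cells.

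Wnt3, the ligand that starts primitive streak formation (chromosome 11, 103774175 to 103818021), had RNA levels of 2.68 in dCD, 2.91 in DKO and 4.96 in WT cells. In the naive state its levels were 1.30 in dCD, 4.12 in DKO and 0.02 in WT cells. Wnt3 RNA was thus higher in formative than in naive cells of dCD and WT, whereas in DKO it was lower in formative than in naive cells. Of its 10 regions above 0 in all groups, 6 had H3K27ac at least 2-fold lower in DKO than in WT, with a median of -1.26. The intronic region chr11:103784909-103785919 was at 4.77 in DKO and 8.04 in WT formative cells, and was 3.59 higher in formative than in naive WT cells in the authors' deposited table (DiffBind adjusted p = 0.0132).

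Axin2, a negative feedback regulator of the Wnt pathway and a common readout of it, had levels of 1.35 in dCD, 2.14 in DKO and 3.67 in WT cells. Sp5, a transcription factor induced by Wnt (chromosome 2, 70474923 to 70477726), had 0.89 in dCD, 2.12 in DKO and 2.92 in WT cells. The dCD value was the lowest of the 3 for both genes. Sp5 differed by -1.23 between dCD and DKO, on the log2 scale, and was within 2-fold of WT in DKO (-0.80). The ligand Wnt8a was at -0.47 in dCD, 1.36 in DKO and 3.34 in WT cells. Evx1, a homeobox gene of the streak on chromosome 6, was at -0.42 in dCD, 0.12 in DKO and 2.85 in WT cells, and Mixl1 was at -0.14 in dCD, -0.10 in DKO and 1.26 in WT cells. For both streak genes the dCD and DKO values were nearer to each other than to WT. Ascl2, a trophoblast factor that Wnt also induces in other tissues, was at 1.23, 1.23 and 3.48 in dCD, DKO and WT cells. The genes called higher on the Wnt list included the inhibitor Dkk1, at 0.81 in dCD, -0.37 in DKO and -0.52 in WT cells, and the secreted inhibitor Notum, at -1.14 in dCD, 0.94 in DKO and -0.91 in WT cells. Dkk1 was called higher in dCD, and Notum in DKO together with the ligand Wnt5a, at -0.42 in dCD, 1.36 in DKO and -0.21 in WT cells.

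**Figure D2:**
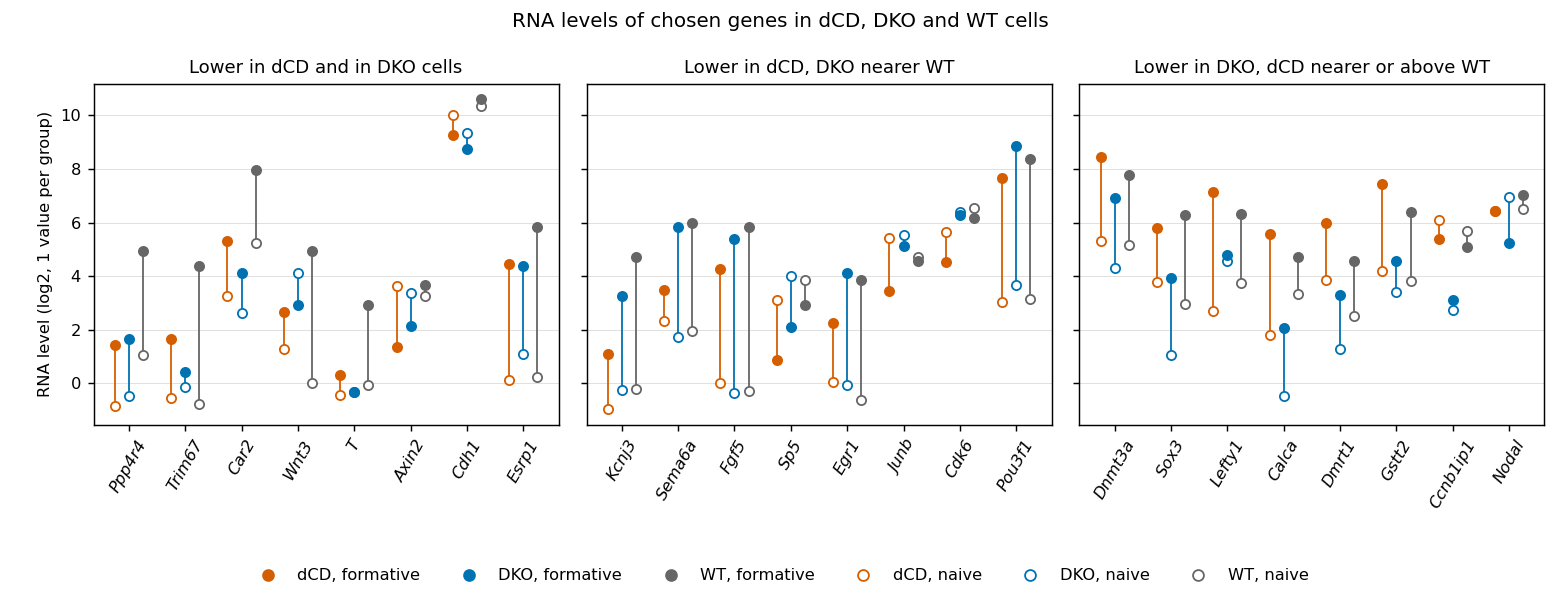
RNA levels (log2, 1 value per group) of 24 genes, chosen after their values were seen, in dCD, DKO and WT cells. Filled points are formative and open points naive cells, joined by a line per genotype. On the left, the WT point of Ppp4r4 is at 4.95 above 1.42 in dCD and 1.64 in DKO. In the middle, Sema6a differs from WT by -2.53 in dCD, and on the right Calca is at 2.06 in DKO against 4.71 in WT.

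Some of the genes with large dCD deficits outside these pathways were low in DKO cells as well. Ppp4r4, a regulatory subunit of protein phosphatase 4 (chromosome 12, 103532250 to 103613839), had RNA levels of 1.42 in dCD, 1.64 in DKO and 4.95 in WT cells. All 10 of its regions that were above 0 in every group had H3K27ac at least 2-fold lower in DKO than in WT, with a median of -3.21. The promoter region was among them, at 5.64 in DKO and 8.81 in WT formative cells. The 250 bases before the start in the RefSeq promoter table (GRCm38.p6, chr12:103532315-103532564, plus strand), a start that lies downstream of the gene's first base given above, are inside that region, do not hold the CTTTGA letters and are shown because H3K27ac of the region differed by -3.17 between DKO and WT cells.

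Ppp4r4: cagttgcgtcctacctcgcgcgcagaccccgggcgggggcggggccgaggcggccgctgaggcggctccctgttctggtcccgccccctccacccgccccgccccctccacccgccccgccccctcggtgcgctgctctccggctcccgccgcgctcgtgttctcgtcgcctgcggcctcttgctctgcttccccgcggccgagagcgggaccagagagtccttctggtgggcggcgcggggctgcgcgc

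A wide region in a Ppp4r4 intron, chr12:103563122-103570684, was at 4.21 in DKO and 7.45 in WT, and 2.10 higher in formative than in naive WT cells in the authors' deposited table (DiffBind adjusted p = 6.67e-23). Trim67, a tripartite-motif ubiquitin ligase, was at 1.66 in dCD, 0.43 in DKO and 4.40 in WT cells, and all 10 of its regions above 0 were at least 2-fold lower in H3K27ac, with a median of -3.19. Both genes were low in naive cells of each genotype, Trim67 at -0.54 in dCD, -0.14 in DKO and -0.78 in WT cells. Car2, a carbonic anhydrase, was at 5.31 in dCD, 4.11 in DKO and 7.97 in WT cells. The plasmolipin gene Pllp was at 3.34 in dCD, 2.21 in DKO and 5.76 in WT cells. Ccno, a cyclin of multiciliated cells, was at 2.57 in dCD, 2.38 in DKO and 5.23 in WT cells. In Car2 and Pllp the DKO level was the lowest, by more than 2-fold against dCD, and in Ccno the mutants lay within 2-fold of each other. Their regions had median H3K27ac differences of -1.45, -2.11 and -2.17. Phlda2, an imprinted growth restrainer of the placenta, was at 4.18 in dCD, 4.36 in DKO and 6.98 in WT cells, with 1 of 5 regions at least 2-fold lower in H3K27ac. Mup6 was at 1.34, 1.15 and 5.49 in dCD, DKO and WT cells, and its value is uncertain since it belongs to a family of near-identical genes.

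Of the matrix and adhesion list, Cdh1 and Esrp1 were lower in both mutants. Cdh1, encoding E-cadherin, was at 9.25 in dCD, 8.76 in DKO and 10.61 in WT cells. Esrp1, a splicing factor of epithelial cells, was at 4.44 in dCD, 4.40 in DKO and 5.83 in WT cells, and 2 of its 3 regions were at least 2-fold lower in H3K27ac in DKO. Cldn7, a claudin of tight junctions, was at 3.89 in dCD, 4.41 in DKO and 5.16 in WT cells, past 2-fold in dCD alone. Epcam, an epithelial adhesion molecule, was within 2-fold of WT, at 0.22 in dCD and -0.57 in DKO, as were the keratin genes Krt8 (0.46 and 0.48) and Krt18 (0.85 and 0.12). Of 14 matrix and adhesion genes, 3 were lower and 2 higher in dCD, beside 3.62% and 4.72% over all genes. In DKO 3 were lower and 4 higher, beside 5.05% and 5.87%. Among the higher ones were Col5a2, a fibrillar collagen, at 1.92 in dCD, 2.62 in DKO and -0.25 in WT cells, and Col1a2, on chromosome 6, at 3.45 in dCD, 3.00 in DKO and 0.98 in WT cells. Vim, encoding vimentin, was at 6.13 in dCD, 7.95 in DKO and 5.48 in WT cells, and Cdh2, encoding N-cadherin, at 1.85 in dCD, 3.14 in DKO and 0.93 in WT cells. Vim and Cdh2 were each more than 2-fold higher in DKO than in dCD, and their dCD values were within 2-fold of WT. Of 3 measured fibroblast markers, which would mark feeder cells, 2 were higher in dCD and 1 was higher and 1 lower in DKO. The higher ones in dCD were Col1a2 and Pdgfrb, with Pdgfrb at 0.50 in dCD, -0.52 in DKO and -1.17 in WT cells. The third, Thy1, was at -0.91 in dCD against WT and at -1.01 after quantile normalization. No call among the markers was at a gene above the median RNA level, in either mutant. The median differences of the 3 markers were 1.67 in dCD and 0.65 in DKO against WT, and the part of other cells in these values was not tested.

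The ligand Fgf5 and the ERK response gene Egr1 were lower in dCD than in DKO cells. Of 15 measured genes of the FGF and ERK list, 4 were at least 2-fold lower and 0 higher in dCD against WT, with a median of -0.59, beside 3.62% lower over all genes. In DKO 1 was lower and 1 higher, with a median of -0.11, beside 5.05% lower. In dCD minus DKO 3 were lower and 0 higher, with a median of -0.44, beside 3.96% lower. Fgf5, the ligand that marks formative and postimplantation epiblast (chromosome 5, 98254184 to 98277033), was at 4.27 in dCD, 5.41 in DKO and 5.82 in WT cells. In naive cells it was near 0 in every genotype, at 0.01, -0.35 and -0.27. Fgf5 was thus higher in formative than in naive cells of every genotype, and its formative level was lowest in dCD. None of its 3 regions was above 0 in all groups. The intronic region chr5:98274102-98274722 was at 5.60 in DKO and 9.33 in WT formative cells, and the one at chr5:98265097-98265620 was listed at 0 in DKO and at 9.22 in WT. The intergenic region chr5:98283096-98284035 was at 8.70 in DKO and 8.43 in WT. In the authors' deposited table it was 6.57 higher in formative than in naive WT cells (DiffBind adjusted p = 9.55e-06).

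Fgf15, an ileal hormone that formative cells also make, was at 3.79 in dCD, 4.79 in DKO and 5.94 in WT cells. The immediate early transcription factor Egr1 was at 2.25 in dCD, 4.13 in DKO and 3.86 in WT cells, and Dusp5, a phosphatase that acts on ERK, was at 3.54 in dCD, 3.86 in DKO and 4.64 in WT cells. Fgf15 was below WT by more than 2-fold in both mutants, whereas Egr1 and Dusp5 were so in dCD alone. Spry4, a feedback inhibitor, was at 3.03 in dCD, 4.04 in DKO and 2.61 in WT cells, called higher in DKO and within 2-fold of WT in dCD. Its dCD minus DKO difference was past 2-fold as deposited and at -0.94 after median centring. Junb, another immediate early gene and a LIF target, was at 3.46 in dCD, 5.11 in DKO and 4.57 in WT cells. The difference of dCD minus DKO was -1.88 for Egr1 and -1.66 for Junb. Relative to the median of chromosome 8, Junb was at -0.96 against WT and no longer past 2-fold.

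Other genes low in dCD and nearer to WT in DKO had no common list. Kcnj3, a potassium channel of heart and brain, was at 1.10 in dCD, 3.28 in DKO and 4.72 in WT cells. Sema6a, a transmembrane semaphorin, was at 3.47 in dCD and 5.84 in DKO cells, which are -2.53 and -0.16 from WT. Cdk6, a kinase of the G1 phase, was at 4.53 in dCD, 6.29 in DKO and 6.17 in WT cells. For Sema6a and Cdk6 the dCD value was more than 2-fold below WT and the DKO value was not, while Kcnj3 was past 2-fold in both. H3K27ac of Kcnj3 at the 5' UTR region chr2:55436206-55437660 was at 4.75 in DKO and 8.44 in WT cells. In the authors' deposited table this region was 3.35 higher in formative than in naive WT cells (DiffBind adjusted p = 7.58e-07). Outside that pattern were Stmn2 and Epha2, which were lower in dCD than in DKO but not nearer to WT in DKO. Stmn2, a neuronal tubulin regulator, was at 5.60 in dCD, 8.08 in DKO and 6.65 in WT cells. Epha2, an ephrin receptor, was at 2.37 in dCD, 4.76 in DKO and 3.12 in WT cells. The DKO value of both was above WT by more than 2-fold, and the dCD value of Epha2 was within 2-fold of it.

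A further set was low in DKO and close to or above WT in dCD. It included Nodal and Lefty1 of the Nodal pathway. Nodal itself, a ligand of the TGF-beta family, was at 6.42 in dCD, 5.25 in DKO and 7.02 in WT cells. Lefty1, a secreted inhibitor and target of Nodal (chromosome 1, 180935022 to 180938401), was at 7.15 in dCD, 4.80 in DKO and 6.32 in WT cells, and Lefty2, its neighbour on chromosome 1, was at 7.29 in dCD, 5.95 in DKO and 6.10 in WT cells. Lefty1 in DKO cells was below both dCD and WT, whereas dCD lay within 2-fold above WT. Lefty2 was not low in DKO cells, where it was within 2-fold of WT, and was more than 2-fold above WT in dCD cells. For Lefty1, H3K27ac was lower in DKO cells. Its promoter region, chr1:180932996-180936702, had H3K27ac of 5.49 in DKO and 7.67 in WT, and all 3 of its regions were at least 2-fold lower in DKO, with a median of -2.17. The Nodal and BMP list shares Nodal, Lefty1 and Lefty2 with the primed and mesendoderm list. Of its 16 genes, 2 were higher and 0 lower in dCD, beside 4.72% and 3.62% over all genes. In DKO 0 were higher and 2 lower, beside 5.87% and 5.05%. The lower ones in DKO, Nodal and Lefty1, are also among the lower genes of the primed and mesendoderm list. The higher ones in dCD were Lefty2 and the ligand Bmp4, with Bmp4 at 2.96 in dCD, 2.78 in DKO and 1.91 in WT cells.

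Dnmt3a, a de novo DNA methyltransferase, was at 8.45 in dCD, 6.93 in DKO and 7.79 in WT cells. Neither mutant was 2-fold from WT, but dCD was above DKO by 1.52 on the log2 scale. Its cofactor Dnmt3l was at 7.43 in dCD, 6.49 in DKO and 8.50 in WT cells, lower in both. Sox3, a transcription factor of the epiblast and the neural plate, was at 5.81 in dCD, 3.94 in DKO and 6.27 in WT cells. Its single region, chrX:60868528-60869047, had H3K27ac of 3.04 in DKO and 9.49 in WT cells. Calca, which encodes calcitonin, was at 5.59 in dCD, 2.06 in DKO and 4.71 in WT cells, and Dmrt1, a regulator of the testis and the germline, was at 5.99 in dCD, 3.30 in DKO and 4.58 in WT cells. In DKO cells 7 of 11 Dmrt1 regions were at least 2-fold lower in H3K27ac than in WT. The glutathione transferase Gstt2 was at 7.44 in dCD, 4.58 in DKO and 6.39 in WT cells. The meiotic ligase Ccnb1ip1 was at 5.40 in dCD, 3.11 in DKO and 5.11 in WT cells, and was low in naive DKO cells also, at 2.76 against 6.08 in dCD and 5.68 in WT. The uncharacterised gene AA465934 was likewise at 7.78, 5.59 and 8.06 in formative and 8.27, 5.10 and 8.41 in naive dCD, DKO and WT cells. For these last genes the DKO deficit was present before exit from the naive state.

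Germline genes gave calls on both sides. Of 9 germline and 2-cell-like genes, 3 were higher and 1 lower in dCD, beside 4.72% and 3.62% over all genes. In DKO 1 was higher and 3 lower, beside 5.87% and 5.05%. In dCD minus DKO 4 were higher and 1 lower, beside 4.3% and 3.96%. Among genes above the median level, 1 of the list was higher and 0 lower in each mutant. The meiotic chromosome protein Sycp3 was at 3.64 in dCD, 1.21 in DKO and 2.55 in WT cells. Dazl, an RNA-binding protein of germ cells, was at 3.61 in dCD, 2.51 in DKO and 3.44 in WT cells. Only Sycp3 of these was past 2-fold against WT, on opposite sides in dCD (1.09) and DKO (-1.33). Zscan4c and Tcstv3, both from families of near-identical copies and so uncertain, were at 2.74, 0.63 and 3.55 and at 0.88, -1.19 and 2.68 in dCD, DKO and WT cells. Stk31, a germ cell kinase on chromosome 6, was 1.06 above WT in dCD cells and 0.57 above it relative to its chromosome.

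Most formative genes were within 2-fold of WT in both mutants. Of the 25 measured, 0 were higher and 4 lower in dCD (Fgf5, Fgf15, Pim2 and Wnt8a), and 2 were higher and 3 lower in DKO. Over all genes 4.72% were higher and 3.62% lower in dCD, and 5.87% and 5.05% in DKO. After quantile normalization Pim2 no longer reached the threshold. The list medians were -0.33 in dCD and -0.15 in DKO. In dCD minus DKO 2 were higher and 5 lower, beside 4.3% and 3.96% over all genes. Pou3f1, also called Oct6, was at 7.65 in dCD, 8.86 in DKO and 8.39 in WT cells, so that dCD was more than 2-fold below DKO but not below WT. Tcf15, which primes the epiblast for differentiation, was at 5.77 in dCD, 7.25 in DKO and 5.36 in WT cells. The grainyhead factor Grhl2 was at 4.23 in dCD, 4.44 in DKO and 4.73 in WT cells, and the zinc-finger factor Sall2 at 5.93 in dCD, 5.50 in DKO and 6.41 in WT cells. The carbonic anhydrase Car4 was at 7.00 in dCD, 6.88 in DKO and 6.45 in WT cells. These 3 were within 2-fold of WT in both mutants, while the H3K27ac of their regions had medians of -2.37, -2.87 and -1.23 in DKO against WT. At these 3 genes H3K27ac was thus more than 2-fold lower in DKO cells and RNA was not, except that Sall2 RNA passed the threshold in DKO after quantile normalization.

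Naive genes were lower in the formative than in the naive state of each genotype by the list median, with exceptions. Of 19 measured, 2 were higher and 0 lower in dCD than in WT, beside 4.72% and 3.62% over all genes. In DKO 4 were higher and 0 lower, beside 5.87% and 5.05%. The formative minus naive medians of the list were -2.05 in dCD, -2.07 in DKO and -2.68 in WT. Gbx2, a homeobox factor that sustains the naive state (chromosome 1, 89927962 to 89931176), was at 4.84 in dCD, 5.40 in DKO and 1.96 in WT cells in the formative state and at 3.92 in dCD, 2.25 in DKO and 4.45 in WT cells in the naive state. Gbx2 RNA was therefore higher in formative than in naive cells of both mutants and lower in formative than in naive WT cells. Of its 5 regions, 3 were at least 2-fold lower in H3K27ac in formative DKO than in WT, with a median of -1.85. Nr0b1, a nuclear receptor of naive cells, was at 1.95 in dCD, 3.06 in DKO and 0.77 in WT cells, and Esrrb was at 4.85 in dCD, 5.64 in DKO and 4.62 in WT cells, past 2-fold in DKO as deposited and at 0.95 after median centring. Spp1, which encodes osteopontin, was at 5.31 in dCD, 6.42 in DKO and 4.53 in WT cells, called higher in DKO alone. Nanog, on chromosome 6, was at 7.55 in dCD, 7.23 in DKO and 6.91 in WT cells, within 2-fold of WT in both mutants. Of 13 LIF and STAT3 genes, 2 were higher and 1 lower in dCD, and 3 higher and 0 lower in DKO. Gbx2 and the receptor gene Lifr were higher in both, Lifr at 4.58 in dCD, 4.79 in DKO and 3.52 in WT cells, and the feedback inhibitor Socs3 in DKO, at 2.68 in dCD, 3.89 in DKO and 2.65 in WT cells.

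Several genes were more than 2-fold higher in both mutants and more than 4-fold higher in dCD, as deposited. Trap1a, a gene of placenta and tumours, was at 7.94 in dCD, 8.23 in DKO and 5.30 in WT cells. In naive cells it was at 8.50, 8.34 and 8.43, so that the formative level stayed near the naive one in dCD and DKO and not in WT. Txnip, an inhibitor of thioredoxin and of glucose uptake, was at 9.56 in dCD, 9.40 in DKO and 7.25 in WT cells. Aldh1b1, a mitochondrial aldehyde dehydrogenase, differed from WT by 3.34 in dCD and 2.09 in DKO cells, and the ubiquitin ligase Rnf165 was at 5.02 in dCD, 3.79 in DKO and 2.44 in WT cells. Txnip differed little between the mutants, whereas Aldh1b1 and Rnf165 were more than 2-fold higher in dCD than in DKO. The noncoding gene Halr1 and the heme-binding Hebp1, both on chromosome 6, were at 5.71 in dCD, 3.61 in DKO and 2.46 in WT cells and at 5.83, 4.84 and 3.57. Relative to the median of chromosome 6, Halr1 was no longer past 2-fold in DKO, at 0.98. Hebp1 was 2.26 above WT in dCD, where the chromosome 6 median was 0.49. Relative to that median its dCD difference was below 4-fold.

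Of 7 measured genes of the imprinted list, 3 were higher and 0 lower in each mutant, beside 4.72% higher in dCD and 5.87% in DKO over all genes. The list does not hold the imprinted Phlda2, which was lower in both mutants, at -2.81 in dCD and -2.62 in DKO. Peg10, a retrotransposon-derived placental gene on chromosome 6, was at 6.90 in dCD, 6.68 in DKO and 4.81 in WT cells, and Mest, also on chromosome 6, was at 4.84 in dCD, 4.35 in DKO and 2.64 in WT cells. In naive cells Peg10 was at 7.90 in dCD, 7.72 in DKO and 3.81 in WT cells. Mirg, a noncoding gene of the Dlk1 region, was at 8.71 in dCD, 6.80 in DKO and 7.56 in WT cells, higher in dCD and not in DKO. The glucose transporters Slc2a1 and Slc2a3 were the called genes of the 12 on the glycolysis list, in both mutants. Slc2a1 was at 7.89 in dCD, 7.85 in DKO and 6.80 in WT cells, and Slc2a3, on chromosome 6, was at 9.87 in dCD, 9.91 in DKO and 8.76 in WT cells. Slc2a1 in DKO was at 0.98 after median centring, and Slc2a3 relative to its chromosome was at 0.62 in dCD and 0.98 in DKO.

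Some genes were higher in DKO than in both dCD and WT cells. En1, a homeobox factor of the midbrain, was at 1.88 in dCD, 5.84 in DKO and 1.40 in WT cells. Anxa1 and Anxa5, which bind phospholipids, were at 2.18 in dCD, 4.51 in DKO and -0.38 in WT cells and at 3.75, 5.83 and 2.46. These 3 genes were more than 4-fold lower in dCD than in DKO, and En1 in dCD was within 2-fold of WT. Meis1, a homeobox cofactor, was at 1.47 in dCD, 2.93 in DKO and -0.56 in WT cells, and Sox1, a factor of neural progenitors, was at 4.49 in dCD, 5.32 in DKO and 2.82 in WT cells. Of 5 homeobox developmental regulators, 1 was higher in dCD and 2 in DKO, beside 4.72% and 5.87% over all genes. None was lower in either, beside 3.62% and 5.05%. Of 6 neural genes, 1 was higher and 2 lower in dCD, and 2 higher and 1 lower in DKO. Nefl and Nes, of intermediate filaments, were the lower ones in dCD, with Nefl at 5.07 in dCD, 6.09 in DKO and 7.41 in WT cells. Zic1, a neural zinc-finger factor, was at 0.81 in dCD, 3.49 in DKO and 0.63 in WT cells. Rpl30, Rps3a1 and Rpl29 were also higher in DKO, by 3.82, 2.67 and 2.04. These ribosomal protein genes have many pseudogenes, so that their values are uncertain, and none of the 10 genes of the ribosomal list was past 2-fold.

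The counts of the other lists were read beside the shares over all genes. These were 4.72% higher and 3.62% lower in dCD, and 5.87% and 5.05% in DKO. None of 10 ribosomal, 13 cholesterol synthesis and 12 housekeeping genes was past 2-fold in either mutant. The cholesterol list had medians of -0.31 in dCD and -0.05 in DKO. Of 10 primitive endoderm genes 0 were higher and 1 lower in dCD, and 2 higher and 1 lower in DKO, the higher ones in DKO being Gata6 and Col4a2. Of 10 trophoblast genes 0 were higher and 1 lower in dCD, and 3 higher and 1 lower in DKO. No call on the primitive endoderm or trophoblast list was at a gene above the median RNA level, in either mutant. The defining factors Gata6 and Hand1 had formative levels of -0.50, 0.26 and -0.76 and -0.72, 0.36 and -0.85 in dCD, DKO and WT cells. Gata6 in DKO was past 2-fold as deposited and at 0.95 after median centring. Of 5 DNA methylation genes, Dnmt3l was the 1 lower in each mutant. Single higher calls were Med12 of 11 acetylation cofactors and Pcgf1 of 12 Polycomb genes in dCD, and Hdac1 of the acetylation cofactors and Cox5a of 10 respiratory genes in DKO. Med12 was at 0.96 after quantile normalization. Pcgf1, on chromosome 6, was 1.04 above WT and 0.55 above it relative to its chromosome. Of 9 genes of the p53 list only Pmaip1, an inducer of cell death, was past 2-fold, and only in DKO, at 5.52 in dCD, 4.44 in DKO and 5.98 in WT cells. Of 8 G1 genes, Cdk6 was lower and the inhibitor Cdkn1b, on chromosome 6, higher in dCD, at 6.67 in dCD, 5.86 in DKO and 5.28 in WT cells. Relative to its chromosome Cdkn1b was at 0.90.

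**Figure D3:**
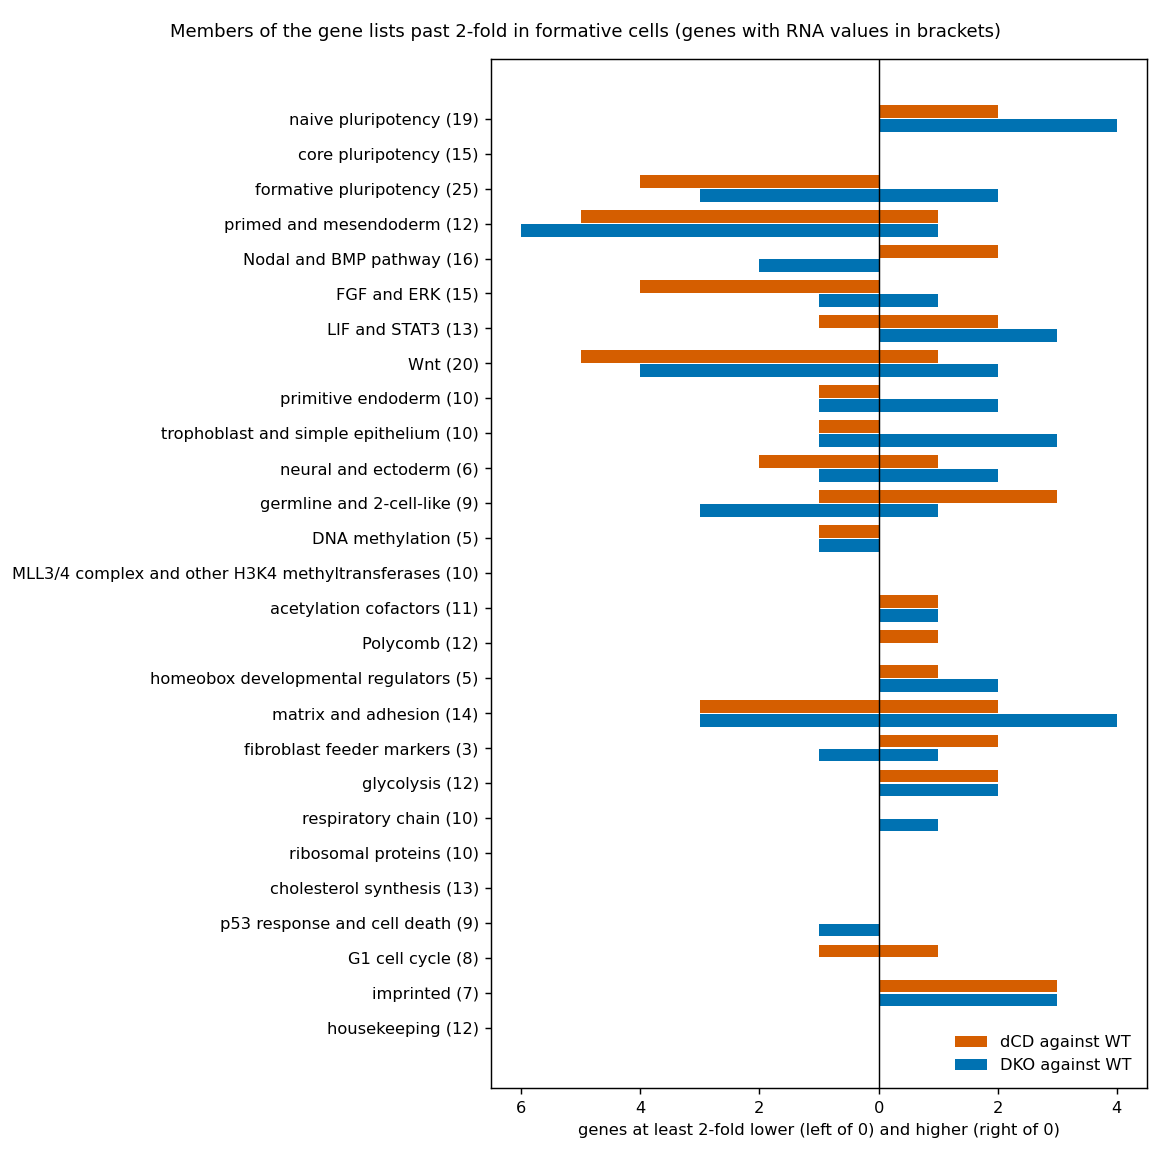
Genes of each list at least 2-fold lower (bars left of 0) and higher (bars right of 0) than WT in formative dCD and DKO cells, with the number of genes with RNA values in brackets. Bars are counts of genes. The primed and mesendoderm list has 5 lower genes in dCD and 6 in DKO, and the FGF and ERK list 4 in dCD and 1 in DKO.

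The change of each genotype on leaving the naive state was then compared, since these differences share no column with each other. Formative dCD cells had 1460 genes (14.9%) at least 2-fold higher and 852 (8.71%) lower than naive dCD cells. The counts were 1760 (18.0%) and 504 (5.15%) in DKO, and 1674 and 944 in WT. Across the 9781 genes, the change in dCD correlated with that in WT at Pearson r = 0.75 and Spearman rho = 0.67, with a slope of 0.67. For DKO against WT the values were 0.61, 0.55 and 0.52. Genes are not independent replicates, and each axis holds 1 value per gene and state.

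Genes higher in formative than in naive WT cells were mostly higher in the formative state of the mutants too, by smaller medians. The 691 genes at least 4-fold higher in formative than in naive WT had median differences of 2.06 in dCD, 1.89 in DKO and 2.73 in WT. They were chosen on the WT columns, which enlarges the WT value and the deficits against WT. Of these genes, 591 (85.5%) were at least 2-fold higher in formative than in naive dCD cells and 552 (79.9%) in DKO. Against formative WT, 133 (19.2%) were lower in dCD and 207 (30.0%) in DKO. In dCD minus DKO 104 (15.1%) were higher and 62 (8.97%) lower, with a median of 0.08, beside 4.3% and 3.96% over all genes. Their regions had a median H3K27ac of -1.24 in DKO against WT. Chosen instead by H3K27ac, from libraries other than the RNA ones, the 2866 genes whose regions only rose in the authors' DiffBind test between formative and naive WT had 145 (5.06%) lower in dCD and 200 (6.98%) in DKO. The 2554 genes whose regions only fell had 46 (1.8%) and 61 (2.39%). The 2746 genes with no such call had 126 (4.59%) and 175 (6.37%), near the shares of the genes that only rose. Over all genes the shares were 3.62% and 5.05%. Median formative WT levels were 3.83 for genes that only rose, 4.65 for those that only fell and 3.47 for those with no call. The part of RNA level in these shares was not tested.

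Genes lower in formative than in naive WT cells had medians further apart between the mutants. The 256 genes whose RNA was 4-fold or more below naive WT in formative WT cells had median differences of -1.62 in dCD, -0.71 in DKO and -2.56 in WT. At least 2-fold lower in the formative state were 182 (71.1%) in dCD and 102 (39.8%) in DKO. The naive levels of these genes had medians of 3.08 in dCD, 1.95 in DKO and 3.71 in WT, and the formative levels 1.35, 1.29 and 0.78. The naive DKO level was thus already the lowest, and the formative levels of dCD and DKO were close to each other. Against formative WT, 50 (19.5%) were higher in dCD and 46 (18.0%) in DKO, beside 4.72% and 5.87% over all genes. These genes were chosen for a low formative WT level, which itself puts the mutants above WT, so nothing is read from those shares.

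**Figure D4:**
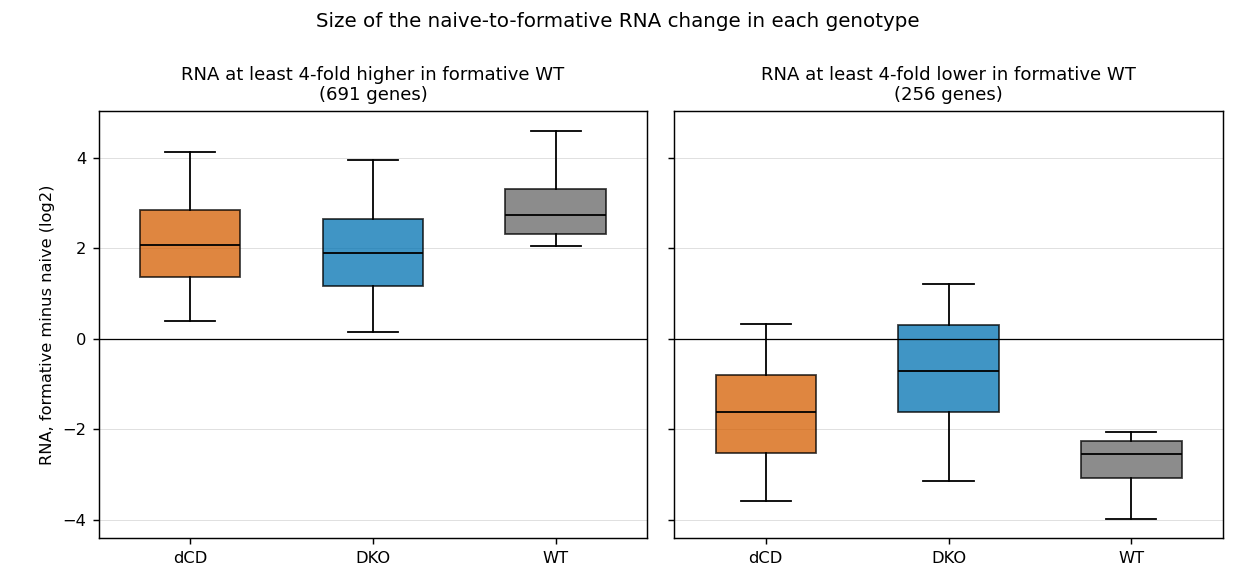
RNA difference between formative and naive cells (log2, vertical axis) in dCD, DKO and WT cells, for genes at least 4-fold higher or lower in formative WT. Boxes span the quartiles over genes, with the median as a line, and whiskers reach the 5 and 95 percentiles. For the genes lower in formative WT the medians are -1.62 in dCD, -0.71 in DKO and -2.56 in WT.

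H3K27ac of DKO against WT was summarised per gene as the median over its regions within 100 kb of the start. Over 9600 genes the median was -0.41, with 29.3% of genes at least 2-fold lower. The scaling between groups is not stated, and with values centred on promoters the share was 57.6%, which bears on the counts of regions above too. Promoter regions lay at 0.86 over 3580 genes and distal regions at -0.54 over 9168. The 9600 genes were cut into quintiles by this value, from the most reduced to the least. Genes lower in dCD made up 7.81%, 4.06%, 2.29%, 1.46% and 1.51% of the quintiles, and genes lower in DKO 12.3%, 5.26%, 3.49%, 1.41% and 1.88%. Genes higher in dCD made up 7.08% of the lowest and 4.17% of the highest quintile, and genes higher in DKO 6.72% and 6.46%. In the lowest quintile, dCD calls were split 150 lower to 136 higher, and DKO calls 237 lower to 129 higher. RNA level moved with the quintiles too: the median WT level was 2.71 in the lowest and 4.90 in the highest, and its part in these shares was not tested.

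**Figure D5:**
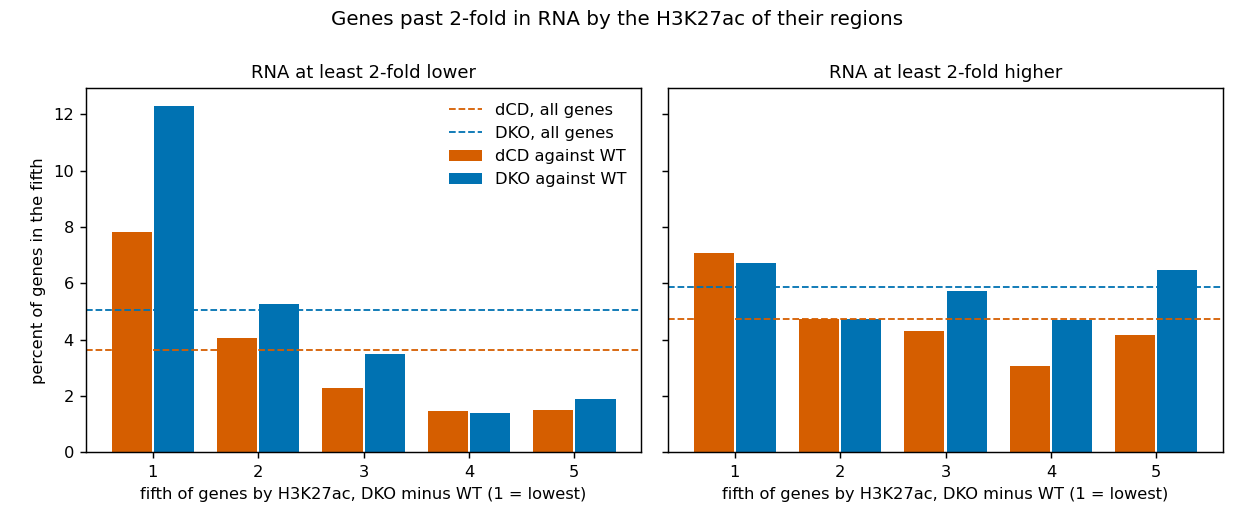
Percent of genes with RNA at least 2-fold lower (left) or higher (right) than WT in formative dCD and DKO cells, by quintiles of genes from the lowest to the highest H3K27ac of DKO minus WT. Dashed lines give the share over all genes. In the lowest quintile, 7.81% of genes are lower in dCD and 12.3% in DKO.

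Among genes above the median RNA level, those lower in dCD than in WT had a median H3K27ac difference of -1.01 in DKO against WT over 87 genes, and 50.6% of them were at least 2-fold lower in H3K27ac. Genes higher in dCD, 44 of 119 of them on chromosome 6, had -0.25 and 31.9%, and genes that were not past 2-fold in dCD had -0.17 and 18.7%. Genes lower in DKO had -1.21 and 57.7%. Genes higher in dCD than in DKO, a comparison without the WT column, had -1.14 and 57.5%, and those lower in dCD than in DKO 0.02 and 17.3%. By these medians, genes with more RNA in dCD than in DKO cells had less H3K27ac in DKO than in WT cells. Of these 74 genes 8 lay on chromosome 6, whose genes had a median H3K27ac of -0.84 in DKO against WT and a median RNA of 0.28 in dCD minus DKO. The low H3K27ac was not particular to chromosome 6. Chromosome 8, which holds Trim67 and Pllp, had a median H3K27ac of -0.96 and a median RNA of -0.11 in dCD minus DKO. H3K27ac of dCD cells was not measured here. H3K4me1 of DKO against WT, from the authors' columns of other libraries, had medians of -0.37 for genes lower in dCD, -0.54 for genes lower in DKO and -0.41 for genes higher in dCD than in DKO. Genes not past 2-fold had 0.29, 0.30 and 0.30 in the 3 comparisons.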

How the data were processed

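Per the labels, H3K27ac was measured by CUT&Tag in 8 libraries, 2 in each of 4 groups. The build was mm10, and deepTools, DiffBind, SEACR, Bowtie2 and Trim Galore are named, per the submitters' processing notes, without versions. The authors deposited 1 table with pooled values, so leaving out replicates was not possible.

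The deposited RNA level is treated as a score on a log scale, since its unit is not stated in the file header. It was read as log2, because as natural logs the levels of a column would sum to more than a per-million scale allows. Whether they are per length is not stated, so levels of named genes were compared within a gene only. Sequencing depth is unknown, so counting intervals are left out. Differences of the levels equal the deposited log2 folds within 9.8e-06. The H3K27ac columns deposited by the authors hold log2(value + 1), with scaling between groups not stated. The authors' deposited DiffBind p-value, adjusted by Benjamini-Hochberg, comes from the 4 WT libraries. Other deposited values used are the distance to the nearest start and, per the file headers, the annotation of each region. A further 6 level columns, of H3K4me1 and of another genotype's RNA, were not used.

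Each gene took the median of its rows, in Python 3.11.15 with pandas 2.3.3 and numpy 2.4.6. A planned limma test needed replicate columns and was not run. The counting was tested on simulated data. Members, gene lists and comparisons were chosen with earlier results of these data known. Named genes are, per comparison and direction, the 8 largest differences past 2-fold with a level above the median in either group, up to 4 genes per list, and all genes of the formative, naive and H3K4 methyltransferase lists. Other genes named were chosen after their values were seen. Of 405 list genes, 279 had RNA values. The alternatives are given in the closing section.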

Additional observations from a re-analysis of the deposited data

Results flagged for a closer look

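Of the 9781 genes, 56 differed in RNA at least 2-fold between the states in opposite directions in dCD and in DKO cells. Of these, 11 were higher in formative dCD and lower in formative DKO cells, and 45 the reverse. The differences between the genotypes were not tested, since each rests on 1 value per group. The 5 named genes among them, with formative minus naive differences on the log2 scale, were these. Lefty2, a Nodal inhibitor, was at 2.80 in dCD, -3.23 in DKO and -0.38 in WT. Its naive levels were 4.49 in dCD, 9.18 in DKO and 6.49 in WT. Wnt3 was at 1.38 in dCD, -1.21 in DKO and 4.94 in WT. Anxa1 was at -1.94 in dCD, 2.12 in DKO and -1.78 in WT, and Dazl at -1.28 in dCD, 1.05 in DKO and -1.12 in WT. The naive levels of Dazl were 4.90 in dCD, 1.46 in DKO and 4.56 in WT. Pdgfrb, a receptor of mesenchymal cells, was at -1.14 in dCD and 1.21 in DKO.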

How the results depend on the processing

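No paired analysis was possible because the table pools the libraries of a group and has no replicate columns, and for the same reason no replicate could be left out. The counts of genes past the threshold were 816 for dCD against WT, 1068 for DKO against WT and 808 for dCD minus DKO. At 1.5-fold they were 2328, 2599 and 2133, at 4-fold 91, 179 and 98, and with genes above the median level alone 208, 270 and 179. Median centring, quantile normalization, genes with a region nearby, the first row of a gene and, chosen after the values were seen, leaving out chromosome 6 and centring by chromosome kept each count within 1.5 times. Of genes called in DKO against WT, 53.7% were higher, and 46.4% after centring by chromosome. Of genes at least 2-fold induced in WT, 12.3% were lower in dCD and 20.2% in DKO, and of those chosen by H3K27ac 5.06% and 6.98%, beside 19.2% and 30.0% at 4-fold. In the lowest quintile by promoter H3K27ac, 6.01% of genes were lower in dCD and 10.1% in DKO. The share of genes with H3K27ac at least 2-fold lower in DKO was 7.82% at promoters, 33.1% at distal regions, 30.4% over all nearest regions, 31.9% with zeros included and 57.6% centred on promoters, beside 29.3%. Of 54 list counts, 1 moved past 1.5 times with median centring, 4 with quantile normalization, 7 with centring by chromosome and 22 with the level filter. The cause of these shifts was not tested.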
